A study of Mus musculus with 10 samples.

Results

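The interferon response and antigen presentation genes described here are a list of 38 genes with 7 roles. They comprise the class I light chain and peptide loading genes, the immunoproteasome, transcription factors with the co-activator Nlrc5, interferon receptors, RNA sensors, induced antiviral effectors and membrane restriction factors. A listed gene was kept where the array held a probe set annotated to that gene symbol alone, and where it held several, the one with the highest mean over all arrays was used. This gave 35 measured members among 19938 genes. H2-K1 and H2-D1, the classical class I heavy chains, and Isg15, an interferon-induced ubiquitin-like protein, had only probe sets annotated to several symbols and were not measured.

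Type I interferons act through the receptor pair Ifnar1 and Ifnar2, and interferon gamma through Ifngr1 and Ifngr2. Downstream of the type I receptor, a complex that includes Stat2 and Irf9 binds the interferon-stimulated response element (ISRE) of its target genes, and the interferon gamma signal reaches genes through the gamma-activated site (GAS). Targets include enzymes and restriction factors that limit viruses, and the genes that cut, transport and load peptides for class I display, whose transcription Nlrc5 also drives. Mouse embryonic stem (ES) cells are known for a weak interferon response and low class I display, and for high levels of some restriction factors without any interferon.

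The arrays compared 5 cultures, each with 2 biological replicates and 1 array per replicate. ESC are R1 mouse ES cells, a single line of 129/Sv origin, kept on mitomycin-treated mouse fibroblast feeders with 15% serum and Lif at 1000 U/ml. The other R1-derived cultures had neither feeders nor serum stated. pNSC_L are the spheres that ES cells formed in N2 medium with Lif at 1000 U/ml, called primitive neural stem cells (primary passage). pNSC_LF are the secondary passage, with Lif at 1000 U/ml, FGF at 10 ng/ml and heparin at 2 µg/ml. dNSC, definitive neural stem cells, were passaged on from primitive ones with N2, B27, EGF at 20 ng/ml, FGF at 20 ng/ml and heparin at 2 µg/ml, and with no Lif stated. CNS_NSC are wild type neural stem cells from the frontal brain of ICR embryos at E11.5, grown with N2, EGF at 20 ng/ml, FGF at 20 ng/ml and heparin at 2 µg/ml. Between CNS_NSC and the other groups, strain, tissue of origin and culture cannot be told apart. No group was treated with interferon, per the labels.

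Values are log2 intensities of the deposited table, in which a difference of 1 is 2-fold. Differences are given as the group named first minus the other, each ± its limma SE, from 2 arrays in each group. A gene is said to rise or fall where its p, adjusted over all 19938 genes by the Benjamini-Hochberg method, was below 0.05. Precision is limited by the small number of arrays. A probe set's level depends on its sequence, so levels of different genes are not compared. The arrays measured whole cultures, in which fewer cells of a type and less RNA per cell cannot be told apart.

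The promoters of 4 members are shown because they carry the letters of the ISRE and belong to genes that behaved differently below: B2m rose, Ifitm3 and Bst2 fell, and Ifit1 stayed below background. Each is 300 bases, 250 before to 50 after the gene's start, in RefSeq's GRCm38.p6, with the ISRE core GAAANNGAA in capitals on either strand. They lie at chr2:122147437-122147736 (plus strand) for B2m, chr7:141010695-141010994 (minus strand) for Ifitm3, chr8:71537423-71537722 (minus strand) for Bst2 and chr19:34640639-34640938 (plus strand) for Ifit1.
B2m: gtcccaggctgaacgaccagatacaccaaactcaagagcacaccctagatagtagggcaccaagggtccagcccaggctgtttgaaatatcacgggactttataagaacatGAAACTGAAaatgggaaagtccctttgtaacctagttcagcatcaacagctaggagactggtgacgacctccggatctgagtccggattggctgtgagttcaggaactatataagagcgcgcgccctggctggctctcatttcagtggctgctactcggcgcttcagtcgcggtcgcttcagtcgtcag
Ifitm3: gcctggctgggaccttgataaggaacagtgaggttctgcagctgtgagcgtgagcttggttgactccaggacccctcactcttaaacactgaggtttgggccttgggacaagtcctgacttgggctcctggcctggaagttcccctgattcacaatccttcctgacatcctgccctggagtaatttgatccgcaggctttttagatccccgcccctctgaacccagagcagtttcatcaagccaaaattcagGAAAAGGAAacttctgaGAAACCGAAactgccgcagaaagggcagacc
Bst2: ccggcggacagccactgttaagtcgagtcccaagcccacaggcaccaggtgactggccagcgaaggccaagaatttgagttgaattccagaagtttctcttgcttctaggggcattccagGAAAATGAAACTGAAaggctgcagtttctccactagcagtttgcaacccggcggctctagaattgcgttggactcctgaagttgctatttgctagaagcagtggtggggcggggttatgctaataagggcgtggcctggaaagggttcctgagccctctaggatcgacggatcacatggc
Ifit1: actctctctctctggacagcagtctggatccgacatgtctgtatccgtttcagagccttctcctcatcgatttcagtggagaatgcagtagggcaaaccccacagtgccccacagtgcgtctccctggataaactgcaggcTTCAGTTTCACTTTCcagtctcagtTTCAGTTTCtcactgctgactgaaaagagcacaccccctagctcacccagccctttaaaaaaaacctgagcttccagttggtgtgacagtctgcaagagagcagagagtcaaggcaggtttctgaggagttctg
B2m held 1 match, beginning at base -139 from the start, and Ifitm3 held 2, at 3 and 20. Bst2 held 2 overlapping matches at -130 and -124, and Ifit1 held 3, at -109, -103 and -84, of which the first and second overlap. Of the 35 members, 30 had a promoter in the table, and 11 of these held the ISRE core, 5 of them with 2 or more matches (Ifih1, Ifitm3, Bst2, Ifit3 and Ifit1). Among all 32851 promoters, 8.6% held the core and 0.62% held it 2 or more times. The GAS letters TTCNNNGAA, also searched on both strands, were in a promoter of 10 of the 30 members and in 8.3% of all promoters. A member counted if any of its promoters matched, and Irf1, Irf8, Irf9 and Ifit2 had more than 1. The shares over all promoters count each promoter singly, so the measures are not strictly alike. In Ifitm3 and Bst2 the GAS letters overlapped an ISRE core. Ifitm1 held neither motif in this window. A match describes these letters and does not show that a factor bound there.

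The groups' defining markers followed their labels in part. The ES cell markers Pou5f1, Nanog, Zfp42, Utf1 and Dppa5a averaged 12.77 to 12.94 on the ESC, pNSC_L and pNSC_LF arrays, 10.66 to 10.78 on the dNSC arrays and 6.93 to 7.05 on the CNS_NSC arrays. The neural markers Nes, Sox1, Fabp7, Pax6 and Slc1a3 averaged 7.85 to 8.08 on the arrays of ESC and both primitive stages, 10.76 on the dNSC arrays and 11.54 to 11.58 on the CNS_NSC arrays. Hprt read 6.99 and 6.76 in ESC and at least 10.45 on the other 8 arrays, so that in comparisons with ESC the cell stock and the culture cannot be told apart. Across genes, replicates correlated at r = 0.9885 to 0.9972, and the members' replicates differed by a median of 0.08 in dNSC to 0.20 in pNSC_L.

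Of the 35 members 23 read above background in every culture, and 9 in none. Of the 9 induced antiviral effectors measured, Ifi35 was above it on every array, Usp18 and Oasl2 in dNSC and CNS_NSC, and the other 6 in no group. Background was set on each array at the 95th percentile of 1228 sensory receptor genes (olfactory, vomeronasal and taste), which these cells are not expected to express. That limit lay between 6.84 and 7.14, against medians of 7.99 to 8.13 for all genes. On both arrays of the group, 23 of 35 members were above it in ESC, 23 in pNSC_L, 23 in pNSC_LF, 26 in dNSC and 26 in CNS_NSC. Over all genes 68.8%, 67.4%, 68.8%, 70.1% and 68.1% were above it in the same order of groups, so the members' shares lay near those of all genes. The limit is a low bar: Nanog at 7.18 and 7.21 and Dppa5a at 7.69 and 7.28 passed it in CNS_NSC. At the 99th percentile of the same genes the counts were 21, 17, 19, 20 and 21.

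The 23 members above background in every group included all 4 measured class I loading genes, all 4 interferon receptors, all 4 membrane restriction factors, and Ddx58, which encodes the RNA sensor RIG-I. Only in dNSC and CNS_NSC did Irf2, Usp18 and Oasl2 pass the limit on both arrays. Irf2 encodes an interferon regulatory factor, Usp18 a protease that removes Isg15 from proteins and dampens receptor signalling, and Oasl2 a relative of the oligoadenylate synthetases. For Oasl2 the group means were 7.02 in ESC, 7.23 in pNSC_L, 7.05 in pNSC_LF, 7.31 in dNSC and 7.15 in CNS_NSC, which straddle the limit, and no comparison called it. Below background on every array were 8 members. They were the immunoproteasome subunit Psmb8, the interferon-inducible regulator Irf7, the RNA sensor Ifih1 (MDA5) and the effectors Ifit1, Ifit3, Mx1, Mx2 and Rsad2 (viperin). Mx1 and Mx2 are dynamin-like GTPases. Ifit2 passed the limit on 1 array only, CNS_NSC replicate 1.

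**Figure D1:**
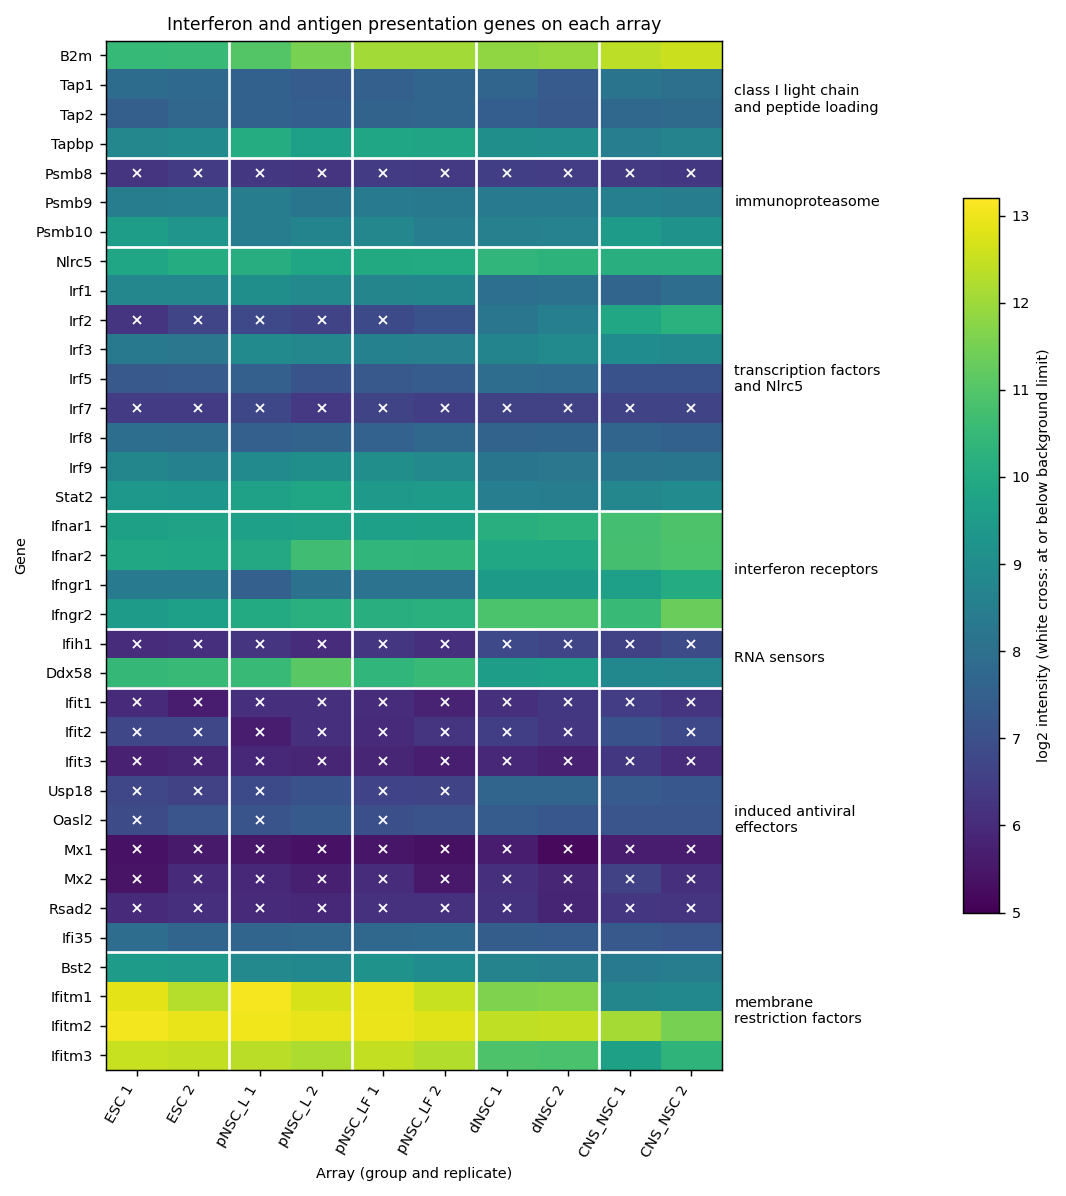
Log2 intensity of the 35 measured members (rows, by role) on the 10 arrays (columns, ESC, pNSC_L, pNSC_LF, dNSC, CNS_NSC), with a white cross where a value is at or below the array's background limit. The Ifit, Mx and Rsad2 rows are at or near the dim end on every array, whereas the Ifitm rows are bright in ESC and both primitive stages and dimmer in CNS_NSC.

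Among the class I genes, B2m, the light chain that every class I molecule needs, was lowest in ESC. B2m read 10.50 and 10.53 in ESC, 11.02 and 11.54 in pNSC_L, 12.06 and 12.07 in pNSC_LF, 11.85 and 11.92 in dNSC, and 12.39 and 12.54 in CNS_NSC. The ESC arrays were the lowest and the CNS_NSC arrays the highest, while dNSC and pNSC_LF differed by -0.19 ± 0.15 (adjusted p = 0.4, limma). B2m rose in dNSC against ESC by 1.37 ± 0.15, or 2.58-fold (adjusted p = 5.6e-05, limma), and in CNS_NSC against ESC by 1.95 ± 0.15, or 3.85-fold (adjusted p = 2.9e-06).

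The peptide loading genes had other patterns. Tap1 and Tap2, which together form the transporter that carries peptides into the endoplasmic reticulum, lay between 7.37 and 8.14 and between 7.29 and 7.83 on all arrays. Neither was called against ESC in dNSC or CNS_NSC. Tapbp, tapasin, which bridges that transporter to class I, had group means of 8.87 in ESC, 9.86 in pNSC_L, 9.82 in pNSC_LF, 9.05 in dNSC and 8.60 in CNS_NSC. It was higher at both primitive stages than in any other group.

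Of the immunoproteasome subunits, which replace constitutive catalytic subunits when cells meet interferon, Psmb8 stayed at 6.22 to 6.52 and Psmb9 at 8.19 to 8.54 on all arrays. Psmb10 had group means of 9.43 in ESC, 8.59 in pNSC_L, 8.64 in pNSC_LF, 8.61 in dNSC and 9.36 in CNS_NSC, so that it was lower in the 3 cultures derived from ES cells than in ESC and CNS_NSC. The constitutive subunits Psmb5, Psmb6 and Psmb7 lay between 10.98 and 13.35 on all arrays.

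The transcription factors divided. Irf2, known as a repressor of interferon-stimulated genes that can also activate, read 6.25 and 6.71 in ESC, 6.80 and 6.69 in pNSC_L, 6.84 and 7.08 in pNSC_LF, 8.21 and 8.55 in dNSC, and 9.89 and 10.24 in CNS_NSC. The dNSC and CNS_NSC arrays stood apart from all others and from each other. Irf2 rose in dNSC against pNSC_LF by 1.42 ± 0.18 (adjusted p = 0.00016, limma) and in CNS_NSC against ESC by 3.58 ± 0.18 (adjusted p = 1.3e-07). Since Irf2 was below background in ESC and not above it on both pNSC_LF arrays, the sizes of these differences are uncertain.

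Stat2 and Irf9, the partners that carry the type I interferon signal to the ISRE, fell on the way to dNSC. Group means of Stat2 were 9.33 in ESC, 9.76 in pNSC_L, 9.48 in pNSC_LF, 8.49 in dNSC and 8.87 in CNS_NSC. For Irf9 they were 8.68, 8.98, 8.95, 8.22 and 8.18 in the same order, and for Irf1, an activator of class I genes, 8.79, 8.97, 8.75, 8.03 and 7.80. By the probe sets used, all 3 were thus lower in both neural stem cell groups than in ESC or either primitive stage. A second, dimmer Irf1 probe set, near the background limit, did not have this order. It read 7.02 and 6.90 in ESC, 7.34 and 7.31 in pNSC_L, and 7.03 and 7.20 in pNSC_LF. In dNSC it read 7.21 and 7.13, and in CNS_NSC 7.30 and 7.11. Irf3, which is activated by the RNA sensors, had means of 8.27 in ESC and 8.59 to 8.93 elsewhere. Irf5, best known from immune cells, was highest in dNSC, at 7.90, against 7.08 in CNS_NSC. Irf8, a factor of myeloid cells, averaged 7.95 in ESC and 7.56 to 7.68 in the other groups.

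Nlrc5, the class I co-activator, had 19 single-symbol probe sets, which disagreed. Their means over all arrays ran from 5.16 to 10.09 with a median of 7.35, 12 of them were above background on all arrays and 3 were below it on all. The brightest set, used here, gave group means of 9.96 in ESC, 9.98 in pNSC_L, 9.99 in pNSC_LF, 10.35 in dNSC and 10.15 in CNS_NSC. By that set Nlrc5 rose in dNSC against ESC by 0.39 and against pNSC_LF by 0.36, but with the mean of all its probe sets the differences were -0.01 (adjusted p = 0.94, limma) and 0.01 (adjusted p = 0.97).

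**Figure D2:**
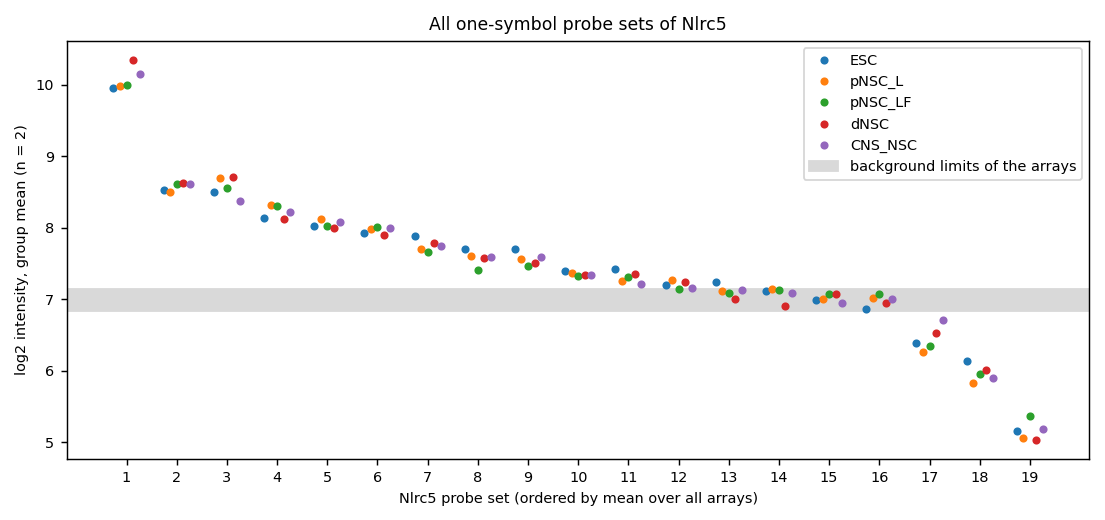
Log2 intensity of the 19 probe sets of Nlrc5 by group, each point the mean of 2 arrays, with the range of the arrays' background limits as a grey band. The sets' means over all arrays run from 5.16 to 10.09, and the brightest is the one kept by the rule of the highest mean.

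Ifnar1, Ifngr1 and Ifngr2 were higher in both neural stem cell groups than in ESC, and Ifnar2 was called higher than ESC in CNS_NSC. Ifnar1, the low-affinity chain of the type I receptor, read 9.65 and 9.71 in ESC, 9.64 and 9.68 in pNSC_L, 9.64 and 9.65 in pNSC_LF, 10.15 and 10.28 in dNSC, and 10.76 and 10.90 in CNS_NSC. The 6 arrays of ESC and the primitive stages lay together, below dNSC, which lay below CNS_NSC. Ifnar1 rose in dNSC against pNSC_LF by 0.57 ± 0.10 (adjusted p = 0.0012, limma). Its partner Ifnar2 averaged 9.86 in ESC, 10.31 in pNSC_L, 10.39 in pNSC_LF, 9.88 in dNSC and 10.83 in CNS_NSC.

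Ifngr1, the ligand-binding chain of the interferon gamma receptor, read 8.42 and 8.40 in ESC, 7.50 and 8.05 in pNSC_L, 8.13 and 8.12 in pNSC_LF, 9.46 and 9.46 in dNSC, and 9.64 and 10.03 in CNS_NSC. The neural groups were above all others by more than their replicates differed. Ifngr1 rose in dNSC against pNSC_LF by 1.33 ± 0.18 (adjusted p = 0.00017, limma). Ifngr2, its signalling partner, read 9.53 and 9.64 in ESC, 10.00 and 10.21 in pNSC_L, 10.15 and 10.19 in pNSC_LF, 10.88 and 10.88 in dNSC, and 10.57 and 11.32 in CNS_NSC. The CNS_NSC replicates differed by 0.75 and straddled dNSC. Ifngr2 rose in dNSC against ESC by 1.30 ± 0.20 (adjusted p = 0.00043, limma), while dNSC and CNS_NSC differed by -0.06 ± 0.20 (adjusted p = 0.86). Without CNS_NSC replicate 1 that difference was -0.43 (adjusted p = 0.03), and without CNS_NSC replicate 2 it was 0.31 (adjusted p = 0.1).

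The RNA sensor Ddx58 took the opposite course. It read 10.46 and 10.51 in ESC, 10.55 and 11.09 in pNSC_L, 10.40 and 10.57 in pNSC_LF, 9.58 and 9.62 in dNSC, and 8.83 and 8.78 in CNS_NSC. Both neural groups lay below every other array, and CNS_NSC lay lowest. Ddx58 fell in dNSC against pNSC_LF by 0.88 ± 0.16 (adjusted p = 0.0013, limma) and in CNS_NSC against ESC by 1.68 ± 0.16, to a level 3.2-fold lower (adjusted p = 1.1e-05). Ifih1, the second RNA sensor on the list, had means of 6.10 in ESC, 6.14 in pNSC_L, 6.21 in pNSC_LF, 6.76 in dNSC and 6.76 in CNS_NSC, all below background.

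Among the induced effectors, Usp18 crossed the background limit in the neural groups. It read 6.75 and 6.59 in ESC, 6.85 and 7.06 in pNSC_L, 6.65 and 6.69 in pNSC_LF, 7.67 and 7.68 in dNSC, and 7.34 and 7.23 in CNS_NSC. The dNSC arrays were the highest, followed by CNS_NSC. Usp18 rose in dNSC against pNSC_LF by 1.00 ± 0.11 (adjusted p = 5.6e-05, limma) and against ESC by 1.00 ± 0.11 (adjusted p = 5.5e-05), sizes that are uncertain because the values below it were at background. Ifi35, an interferon-induced leucine zipper protein, averaged 7.81 in ESC, 7.71 in pNSC_L, 7.79 in pNSC_LF, 7.41 in dNSC and 7.21 in CNS_NSC. The group means of Ifit1, Ifit3, Mx1, Mx2 and Rsad2 ran from 5.41 to 6.38 over all 5 groups, and those of Ifit2 from 5.88 to 6.93.

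The membrane restriction factors read higher in ESC and both primitive stages than in the neural groups. Bst2, tetherin, which holds budding virus at the cell surface, read 9.54 and 9.39 in ESC, 8.87 and 8.83 in pNSC_L, 9.19 and 9.00 in pNSC_LF, 8.66 and 8.58 in dNSC, and 8.34 and 8.45 in CNS_NSC. The order ran from ESC at the top to CNS_NSC at the bottom, with no overlap between groups. Bst2 fell in dNSC against ESC by 0.84 ± 0.11 (adjusted p = 0.00017, limma).

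The Ifitm proteins block the entry of viruses at cell and endosome membranes. Ifitm1 read 12.86 and 12.29 in ESC, 13.08 and 12.69 in pNSC_L, 12.93 and 12.50 in pNSC_LF, 11.63 and 11.69 in dNSC, and 8.77 and 8.84 in CNS_NSC. The ESC and primitive arrays overlapped, dNSC lay below them, and CNS_NSC lay far below dNSC. Ifitm1 fell in dNSC against pNSC_LF by 1.05 ± 0.20 (adjusted p = 0.0022, limma) and was 13.7-fold lower in CNS_NSC than in ESC (-3.77 ± 0.20, adjusted p = 1.9e-07). A second Ifitm1 probe set had the same order of groups and read 10.69 and 10.81 in dNSC, 7.38 and 7.21 in CNS_NSC, and 12.27 and 11.77 in ESC.

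Ifitm3 read 12.52 and 12.45 in ESC, 12.34 and 12.19 in pNSC_L, 12.46 and 12.26 in pNSC_LF, 10.90 and 10.86 in dNSC, and 9.66 and 10.32 in CNS_NSC. Neither neural group overlapped any other, although the CNS_NSC replicates lay well apart. Ifitm3 fell in dNSC against pNSC_LF by 1.48 ± 0.18, a level 2.78-fold lower (adjusted p = 0.00012, limma). Ifitm2 read 13.06 and 12.94 in ESC, 13.02 and 12.93 in pNSC_L, 12.97 and 12.79 in pNSC_LF, 12.41 and 12.46 in dNSC, and 12.08 and 11.51 in CNS_NSC. Here too CNS_NSC was lowest and dNSC next, with smaller steps than for Ifitm3. Ifitm2 had 3 probe sets, of which the brightest is given, and the others also had CNS_NSC lowest and dNSC next. The dimmest read 11.95 and 11.90 in pNSC_LF, 11.17 and 11.23 in dNSC, and 11.08 and 10.31 in CNS_NSC, so the step sizes depend on the probe set. The Ifitm genes are a family of near relatives, and reads of one by another's probes cannot be told apart here.

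**Figure D3:**
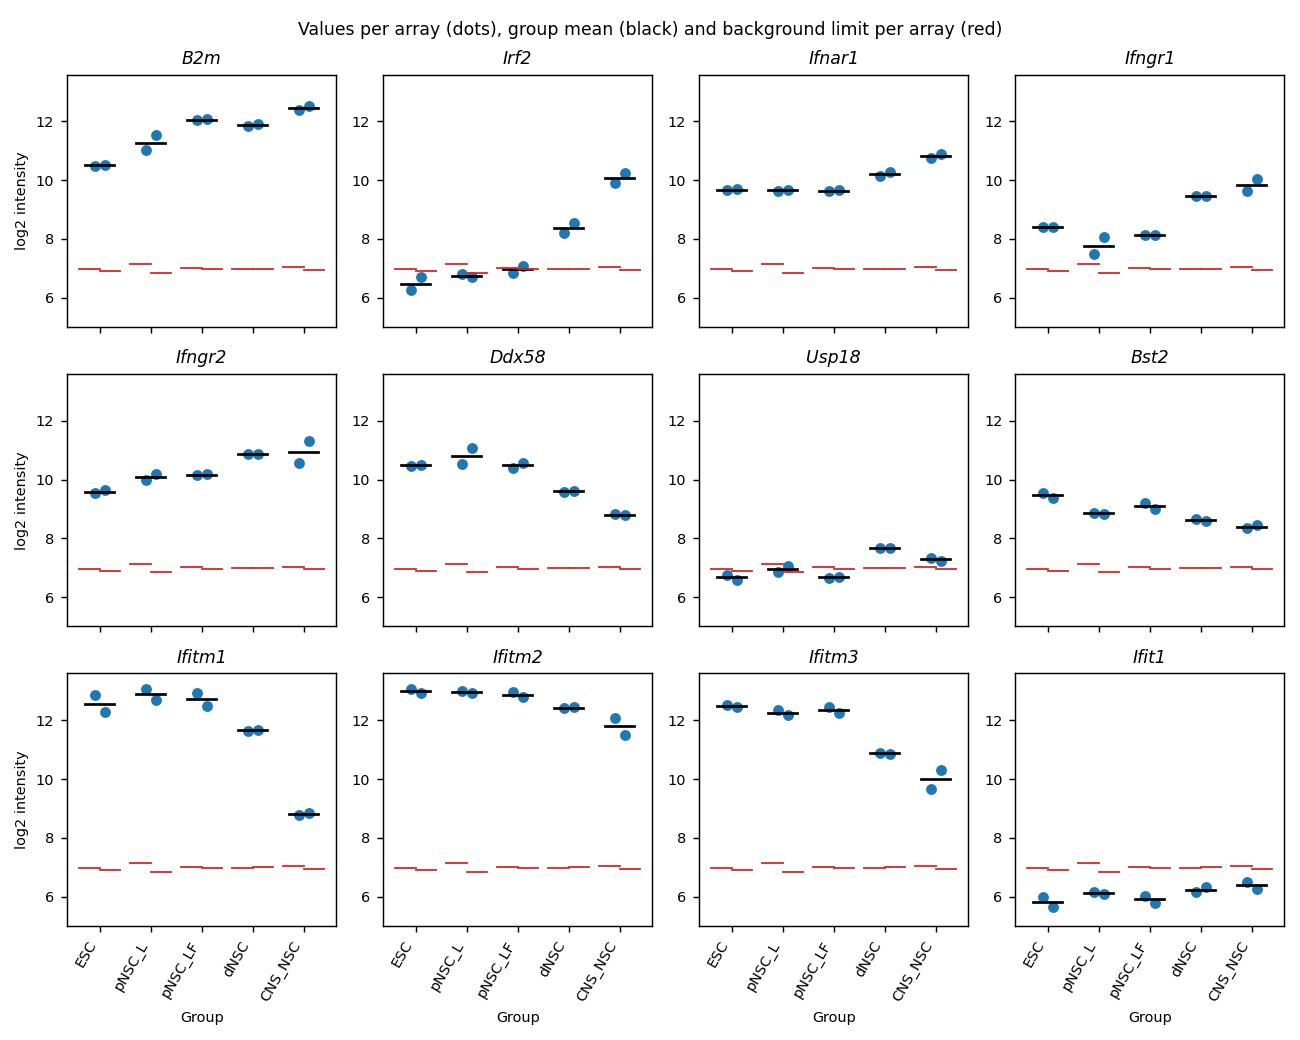
Log2 intensity (vertical axis) of the 11 members that differed at least 2-fold in a comparison and passed background in some group, and of Ifit1 as a member below background, by group on the horizontal axis (dots, arrays; black lines, group means; red lines, each array's background limit). By group mean B2m, Irf2 and the receptors are highest in CNS_NSC, Usp18 is highest in dNSC, and Ddx58, Bst2 and the 3 Ifitm genes are lowest in CNS_NSC.

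In the spheres in serum-free Lif medium, pNSC_L against ESC, 4 of 35 members rose and 5 fell, where 6.56% of all genes rose and 6.79% fell. Because Hprt differed between these groups, the cell stock and the culture cannot be told apart here. Tapbp rose by 0.99 ± 0.14 (adjusted p = 0.0019, limma), B2m by 0.76 ± 0.15 (adjusted p = 0.0094), Irf3 by 0.58 ± 0.11 and Stat2 by 0.42 ± 0.10. Psmb10 fell by 0.84 ± 0.15, Bst2 by 0.61 ± 0.11, Ifngr1 by 0.64 ± 0.18, Irf8 by 0.38 ± 0.11, and Ifit2, below background in both groups, by 0.87 ± 0.17. The members' median difference was 0.04 and their median absolute difference 0.27, against 0.02 and 0.16 for all genes. Only Tapbp was called under every setting. The count of 9 dropped to 2 without ESC replicate 1 and to 3 without ESC replicate 2.

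Beyond the members, of 42 other interferon-induced genes 3 rose and 6 fell, where 6.56% of all genes rose and 6.79% fell. Dtx3l, a ubiquitin ligase of the antiviral response, fell by 1.20 ± 0.14, Lgals9, galectin-9, fell by 1.08 ± 0.10, and Xaf1, a pro-apoptotic interferon target, rose by 1.19 ± 0.19. Of 16 receptor signalling genes 2 rose, among them the kinase gene Tyk2 by 0.56 ± 0.10, and of 17 sensing genes only Mavs, the adaptor of the RNA sensors, rose, by 0.58 ± 0.12, a call lost without ESC replicate 2. Of 24 other MHC and peptide loading genes 2 fell, and of 13 other proteasome subunits none passed the test by limma. Ifna4, the 1 of 9 ligand genes that rose, was below background on every array and not called without any 1 of the 4 arrays. The summed linear intensity of 12 feeder fibroblast markers was 3036 to 3883 in pNSC_L and 2690 to 2694 in ESC, with Lum and S100a4 below background on every array. Without Dcn, which read 8.79 and 10.41 in pNSC_L and 6.06 and 6.48 in ESC, the sums were 2524 to 2595 in pNSC_L and 2604 to 2623 in ESC. The 8 primitive endoderm markers summed to 3593 to 4196 in pNSC_L and 2409 to 2560 in ESC. The part of these markers in the results was not tested.

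Passage with FGF and heparin beside Lif, pNSC_LF against pNSC_L, left the members nearly where they were. B2m alone rose, by 0.79 ± 0.15 (adjusted p = 0.032, limma), and no member fell, where 1.10% of all genes rose and 0.677% fell. B2m did not pass with pNSC_LF replicate 1 left out (adjusted p = 0.24), with pNSC_LF replicate 2 left out (0.20), with pNSC_L replicate 1 left out (a difference of 0.53, adjusted p = 0.053), or where only these groups were fitted (0.16). The members' median absolute difference was 0.12, against 0.11 for all genes. Of the wider lists 1 gene passed, Ifi203, of a family of DNA-binding proteins, which fell by 0.83 ± 0.14 below background and was not called without either pNSC_LF replicate.

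The step to definitive neural stem cells, dNSC against pNSC_LF, in which Lif was no longer given and EGF, B27 and more FGF were, moved members both ways. Of 35, 8 rose and 9 fell, where 19.3% of all genes rose and 19.3% fell. Of the 4 receptors 3 rose: Ifngr1, Ifnar1 and Ifngr2, the last by 0.71 ± 0.20. The fourth, Ifnar2, differed by -0.51 ± 0.19 (adjusted p = 0.059, limma) and was called lower under 4 of the 11 alternatives, with an adjusted p from 0.001 where only these groups were fitted to 0.18 without an array. Membrane restriction factors fell, 3 of 4: Ifitm3, Ifitm1 and Bst2, the last by 0.48 ± 0.11. Among the transcription factors, Stat2 fell by 1.00 ± 0.10 (adjusted p = 3.4e-05, limma), Irf9 by 0.73 ± 0.11 and Irf1 by 0.72 ± 0.12, while Irf2 rose and Irf5 rose by 0.56 ± 0.13. Tapbp fell by 0.77 ± 0.14 and Ifi35 by 0.38, and Ifih1 rose by 0.54 ± 0.13 below background.

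The members' median difference in that step was -0.02 and their median absolute difference 0.38, against -0.01 and 0.26 for all genes. Tapbp, Irf1, Irf2, Irf9, Stat2, Ifnar1, Ifngr1, Ddx58, Usp18, Ifitm1 and Ifitm3, 11 of the 17, were called under every setting that tested them. The calls of Nlrc5, Ifngr2 and Ifi35 were lost without any 1 of the 4 arrays, that of Irf5 without pNSC_LF replicate 1, those of Bst2 without dNSC replicate 2 or pNSC_LF replicate 1, and those of Ifih1 without dNSC replicate 1 or pNSC_LF replicate 2. The summed intensity of 8 primitive endoderm markers was 5401 to 5420 in dNSC and 3911 to 3977 in pNSC_LF, and that of the feeder fibroblast markers 4091 to 4197 in dNSC and 2446 to 2475 in pNSC_LF. Endothelium markers were above background for 8 of 8 in dNSC and 7 of 8 in pNSC_LF, with mean log2 values of 8.40 to 8.44 in dNSC and 7.74 in pNSC_LF. Their summed intensities were close, 2944 to 3052 in dNSC and 2855 to 2947 in pNSC_LF. Pecam1 was lower in dNSC, at 7.97 and 8.02 against 10.59 and 10.68 in pNSC_LF. Tek was lower too, at 7.50 and 7.44 against 8.77 and 8.77, and the other endothelium markers were higher in dNSC. Macrophage and microglia markers summed to 1514 to 1618 in dNSC and 3527 to 3627 in pNSC_LF. Of these, Cd68 read 7.81 and 7.68 in dNSC and 11.14 and 11.08 in pNSC_LF. The other macrophage and microglia markers lay between 5.98 and 7.78 on these arrays. The part of all these marker lists in the results was not tested.

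In the wider pathway the same step moved sensing, signalling and interferon-induced genes both ways, where 19.3% of all genes rose and 19.3% fell. Of 17 sensing genes 6 fell and 2 rose, with Aim2, a sensor of cytosolic DNA, lower by -2.60 ± 0.32 and Trim25, the ubiquitin ligase that activates RIG-I, by -2.57 ± 0.12. Of 16 receptor signalling genes 6 fell and 3 rose: Socs3, the feedback inhibitor induced by Stat3, fell by 2.10 ± 0.10, Tyk2 by 1.48 ± 0.10 and Stat3 by 1.08 ± 0.12, while Jak2 rose by 0.97 ± 0.22. Socs3 and Stat3 also belong to the response to Lif, which was present in pNSC_LF medium. In CNS_NSC, also with no Lif stated, Stat3 read 11.48 and 11.31 and Socs3 7.47 and 7.55. The part of Lif in these falls was not tested, and it cannot be told apart from that of EGF, B27 and more FGF. Of 42 other interferon-induced genes 12 fell and 5 rose, led by Xaf1 at -2.85 ± 0.19, the PHD finger gene Phf11d at -2.75 ± 0.23 and Zc3hav1, the zinc finger antiviral protein, at -1.83 ± 0.16. Of 24 MHC and loading genes 5 rose and 4 fell, with H2-Q4, a class I gene with close relatives, higher by 1.04 ± 0.12 and the lipid-presenting Cd1d1, below background in dNSC, lower by -0.92 ± 0.20. Of 13 proteasome subunits 3 rose and 3 fell, and of 9 ligand genes none passed the test by limma.

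**Figure D4:**
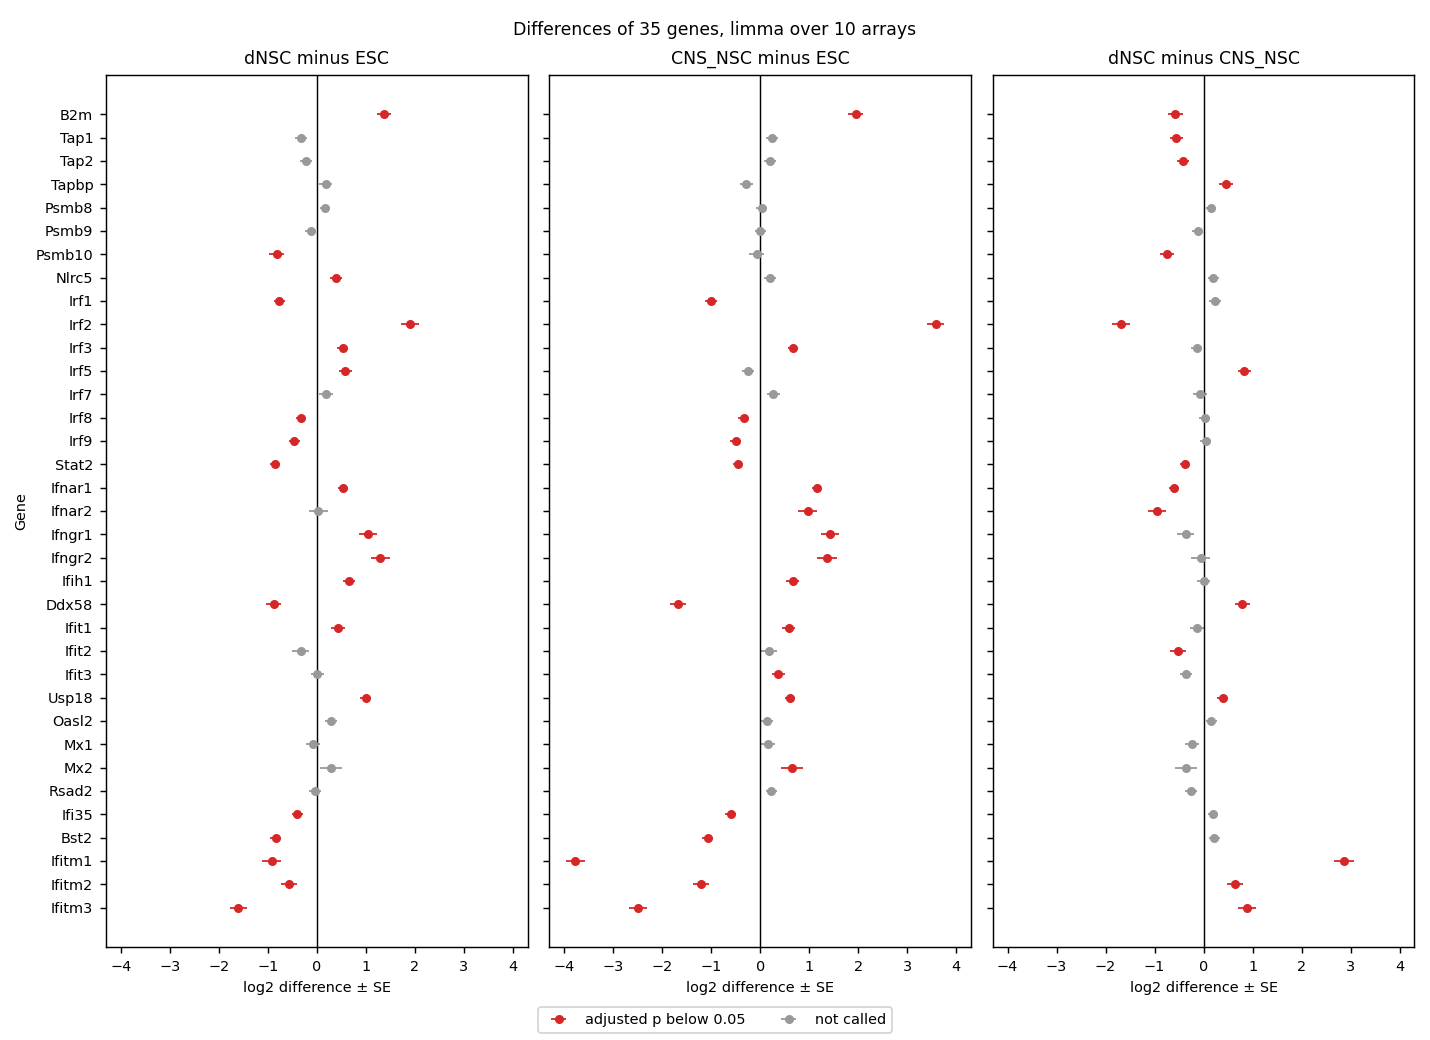
Log2 difference (horizontal axis, bars ± SE) of each measured member in dNSC against ESC, CNS_NSC against ESC and dNSC against CNS_NSC, in red where the adjusted p was below 0.05 and in grey elsewhere. The largest differences are those of Irf2 and Ifitm1 in CNS_NSC against ESC, at 3.58 and -3.77.

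Between the last R1-derived culture and ESC, dNSC against ESC, 11 members rose and 11 fell, where 20.7% of all genes rose and 19.9% fell. Here too the cell stock and the culture cannot be told apart. B2m, Irf2, Ifngr1, Ifngr2 and Usp18 rose at least 2-fold, and Ifitm3 fell to a level 3.04-fold lower (-1.60 ± 0.18, adjusted p = 6.8e-05, limma). All 4 membrane restriction factors fell, Ifitm1 by 0.92 ± 0.20 and Ifitm2 by 0.57 ± 0.16. Smaller rises were those of Ifnar1 (0.54 ± 0.10), Irf3 (0.53), Irf5 (0.58) and, below background, Ifih1 (0.66) and Ifit1 (0.43). Psmb10 fell by 0.82 ± 0.15, Irf1 by 0.76 ± 0.12, Stat2 by 0.85 ± 0.10, Ddx58 by 0.88 ± 0.16, Irf9 by 0.46, Irf8 by 0.32 and Ifi35 by 0.40. The median difference was 0.01 and the median absolute difference 0.46, against 0.03 and 0.27 for all genes.

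Of these 22 calls 16 held under every setting that tested the gene. Feeder fibroblast markers were above background for 10 of 12 in dNSC and 8 of 12 in ESC, with summed intensities of 4091 to 4197 in dNSC and 2690 to 2694 in ESC, and primitive endoderm markers summed to 5401 to 5420 in dNSC and 2409 to 2560 in ESC. Endothelium markers averaged 8.40 to 8.44 in dNSC (8 of 8 above background) and 7.58 to 7.64 in ESC (6 of 8). They summed to 2944 to 3052 in dNSC and 2475 to 2595 in ESC, and moved both ways. Pecam1 was lower in dNSC, at 7.97 and 8.02 against 10.30 and 10.42 in ESC. Tek was lower too, at 7.50 and 7.44 against 8.72 and 8.54. The other endothelium markers were higher in dNSC, with Emcn at 9.21 and 9.23 in dNSC and 5.68 and 5.69 in ESC. The part of these marker lists in the results was not tested. The calls of Irf8 and Ifitm2 were lost without any 1 of the 4 arrays. Without dNSC replicate 1 the calls of Irf9, Ifit1, Ifi35 and Nlrc5 were lost too, without dNSC replicate 2 those of Ifit1, Ifi35 and Nlrc5, without ESC replicate 1 those of Irf9, Ifi35 and Nlrc5, and without ESC replicate 2 that of Ifit1. Over all genes 20.7% rose and 19.9% fell. In the wider lists, 15 of 42 other interferon-induced genes fell and 8 rose. Phf11d differed by -3.19 ± 0.23 and the GTPase gene Irgm1, below background in ESC, by 1.74 ± 0.18. Of 17 sensing genes 6 fell and 2 rose, Trim25 at -2.50 ± 0.12 and Tank, a signalling adaptor, at 1.44 ± 0.24. Receptor signalling divided 5 to 5 of 16, and MHC and loading genes 5 to 5 of 24, in which Erap1, the peptide-trimming aminopeptidase, which was below background in ESC, rose by 0.88 ± 0.13. Of 13 proteasome subunits 2 rose and 3 fell. Ifng was the 1 of 9 ligand genes called, at 0.52 ± 0.13, and lost its call without dNSC replicate 1 or ESC replicate 1. It lay near the background limit, at 6.69 and 7.03 in ESC, where 1 array was above it, and 7.45 and 7.30 in dNSC.

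CNS_NSC against ESC gave the largest member differences of the 6 comparisons, with 12 higher and 10 lower, where 21.7% of all genes were higher and 22.1% lower. All 4 receptors were higher: Ifngr1 by 1.42 ± 0.18, Ifngr2 by 1.36 ± 0.20, Ifnar1 by 1.15 ± 0.10 and Ifnar2 by 0.97 ± 0.19 (adjusted p = 0.0019, limma). All 4 membrane restriction factors were lower: beside Ifitm1, Ifitm3 by -2.49 ± 0.18 (5.64-fold), Ifitm2 by -1.21 ± 0.16 and Bst2 by -1.07 ± 0.11. Irf1 fell by 1.00 ± 0.12, Irf9 by 0.50, Stat2 by 0.46, Irf8 by 0.34 and Ifi35 by 0.60. Irf3 was higher by 0.67 and Usp18 by 0.61 ± 0.11, and below background Ifih1 by 0.66, Ifit1 by 0.58, Mx2 by 0.65 and Ifit3 by 0.37.

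The members' median difference there was 0.18 and their median absolute difference 0.58, against 0.04 and 0.29 for all genes. Of the 22 calls 18 held under every setting that tested the gene, and those of Irf8, Ifit1, Ifit3 and Mx2 did not. Irf8 was lost without CNS_NSC replicate 2 or either ESC replicate, Ifit1 without CNS_NSC replicate 1 or ESC replicate 2, Ifit3 without CNS_NSC replicate 1 or either ESC replicate, and Mx2 without CNS_NSC replicate 1 or ESC replicate 1. Feeder fibroblast markers summed to 6154 to 6606 in CNS_NSC and 2690 to 2694 in ESC, with 8 of 12 above background in both. Without Fbln2, at 12.14 and 12.04 in CNS_NSC and 7.89 and 7.86 in ESC, the sums were 1950 to 2102 in CNS_NSC and 2453 to 2461 in ESC. Endothelium markers summed to 1105 to 1157 in CNS_NSC (4 of 8 above) and 2475 to 2595 in ESC (6 of 8 above). Pecam1 read 7.08 and 6.82 in CNS_NSC and 10.30 and 10.42 in ESC, and Tek 6.77 and 6.75 in CNS_NSC and 8.72 and 8.54 in ESC. Emcn was higher in CNS_NSC, at 6.83 and 7.25 against 5.68 and 5.69 in ESC. The other endothelium markers lay between 6.87 and 7.73 in both groups. The part of these marker lists in the results was not tested. Of the 12 macrophage and microglia markers, 6 (Csf1r, Aif1, Ptprc, Itgam, C1qb and C1qc) were below background on every array. The 5 above it in both groups were Cx3cr1, C1qa, Tyrobp, Trem2 and Cd68, the last at 8.34 and 8.23 in CNS_NSC and 10.21 and 9.99 in ESC. Over all genes 21.7% were higher and 22.1% lower. Of the 42 other interferon-induced genes 11 were higher and 15 lower. Phf11d differed by -5.34 ± 0.23 and Ifi30, a lysosomal thiol reductase of antigen processing, by -3.33 ± 0.11. The tudor domain gene Tdrd7 differed by 2.82 ± 0.20 and the guanylate-binding GTPase gene Gbp7 by 2.24 ± 0.15. Of 17 sensing genes 5 were higher and 3 lower, including the double-stranded RNA receptor Tlr3 at 1.79 ± 0.17 and Trim25 at -3.89 ± 0.12. Of 16 signalling genes 6 were higher and 5 lower, with Jak2 at 2.46 ± 0.22. The MHC and loading genes divided 7 to 4 of 24, 2 of 13 proteasome subunits were lower, and none of the 9 ligands passed the test by limma. Phf11d and Trim25 were not above background in CNS_NSC, nor Tdrd7, Gbp7 and Tlr3 on both ESC arrays, so the sizes of their differences are uncertain.

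The definitive cells and those from the embryo, dNSC against CNS_NSC, differed at 16 members, 7 higher and 9 lower, where 17.6% of all genes were higher and 16.5% lower. Ifitm1 was 7.24-fold higher in dNSC (2.86 ± 0.20, adjusted p = 2.8e-06, limma), and Ifitm3 was higher by 0.89 ± 0.18 and Ifitm2 by 0.64. Ddx58 was higher in dNSC by 0.79 ± 0.16, Irf5 by 0.83 ± 0.13, Tapbp by 0.46 and Usp18 by 0.39. Irf2 was 3.22-fold lower in dNSC (-1.68 ± 0.18, adjusted p = 5.7e-05). Of the 7 measured class I, peptide loading and immunoproteasome genes 4 were lower in dNSC, Tapbp was higher, and Psmb8 and Psmb9 did not pass. B2m was lower by -0.58 ± 0.15 (adjusted p = 0.014), Tap1 by -0.56 ± 0.13, Tap2 by -0.42 and Psmb10 by -0.75 ± 0.15. Also lower were the type I receptor genes Ifnar1, by -0.61 ± 0.10, and Ifnar2, by -0.95 ± 0.19, Stat2, by -0.39, and Ifit2, by -0.52.

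The median difference there was -0.08 and the median absolute difference 0.36, against -0.01 and 0.23 for all genes. Psmb10, Irf2, Irf5, Ifnar1, Ifnar2, Ddx58, Ifitm1 and Ifitm3, 8 of the 16, were called under every setting that tested them. Without dNSC replicate 1 the calls of B2m, Tapbp, Stat2, Ifit2, Usp18 and Ifitm2 were lost, and without dNSC replicate 2 these and those of Tap1 and Tap2. Without CNS_NSC replicate 1 Tapbp and Ifit2 were lost, and without CNS_NSC replicate 2 B2m, Tap2, Stat2, Usp18 and Ifitm2. ES cell markers differed too, averaging 10.66 to 10.78 in dNSC and 6.93 to 7.05 in CNS_NSC. The 8 endothelium markers summed to 2944 to 3052 in dNSC and 1105 to 1157 in CNS_NSC. Primitive endoderm markers summed to 5401 to 5420 in dNSC and 1947 to 3562 in CNS_NSC. Feeder fibroblast markers summed to 4091 to 4197 in dNSC and 6154 to 6606 in CNS_NSC. Without Fbln2 the feeder sums were 3652 to 3787 in dNSC and 1950 to 2102 in CNS_NSC. Their part in these results was not tested. Over all genes 17.6% were higher and 16.5% lower. In the wider lists 6 interferon-induced genes were higher and 9 lower of 42, with Ifi30 at 2.23 ± 0.11 and Gbp7 at -1.98 ± 0.15. The sensing genes divided 4 to 6 of 17, signalling genes 5 to 7 of 16 and MHC and loading genes 4 to 6 of 24, with Cd1d1 at -2.23 ± 0.20 and H2-Q4 at 1.29 ± 0.12. Cd1d1 in dNSC, H2-Q4 in CNS_NSC and Gbp7 in dNSC were not above background on both arrays, so these sizes are uncertain. Of 13 proteasome subunits 5 were higher and 2 lower, Psme2 of the interferon-induced activator among them at 0.72 ± 0.13, and none of the 9 ligands passed the test by limma.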

How the data were processed

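Total RNA from 10 mouse cultures was hybridised to Affymetrix whole-transcript gene arrays, according to the protocols in the labels. The values the authors deposited are log2 intensities of 35556 probe sets. RMA and Partek are named, with no version, in the submitters' processing notes. RMA corrects the background, makes arrays' distributions alike and merges the probes of a set, so differences of dim probe sets come out smaller. No build of the genome is given in the sources used here. No header gives the log base, which was inferred from array medians of 7.66 to 7.76. Scan dates were left aside.

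Gene names came from the platform's annotation of the probe sets: 21789 had 1 symbol, 1621 several and 12146 none here. For 999 genes with more than 1 probe set the highest mean was kept, giving 19938 genes with no filter, and 0 pairs of arrays were identical. Limma 3.58.1 (R 4.3.3) fitted 1 mean for each group to the 10 arrays together, with 5 residual and 4.9 prior degrees of freedom and a median SE of 0.13 for a difference. The fit was tested on simulated data, with Benjamini-Hochberg adjustment over all genes and a threshold of 0.05. Python 3.11.15, pandas 2.3.3 and matplotlib 3.10.9 made the tables and plots.

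The members and lists were chosen with earlier results of these data known. All members are named. Array values are given for members called at 2-fold or more and above background in some group, and from the wider pathway lists at most 4 called genes with the largest difference. Alternatives were quantile and cyclic loess normalization, leaving out the dimmer 50% of genes, a trended prior, the replicate number as a block, a fit of only the groups compared, the mean of a gene's probe sets, and leaving out each replicate. The background limit was also set at the 90th and 99th percentile and at the median of all genes. Promoters are RefSeq's, GRCm38.p6. H2-K1, H2-D1 and Isg15 are not reported because their probe sets carry several symbols.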

Additional observations from a re-analysis of the deposited data

How the results depend on the processing

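Of 87 member differences called, 54 were called under every alternative in which the gene was tested, and 33 were lost under at least 1. Each comparison had 11 alternatives, but members left out with the dimmer 50% of genes were not tested in that one. In 2 results the sign turned, neither of them called there. For Nlrc5 in dNSC against ESC it turned with the mean of its probe sets (-0.01). For Ifngr2 in dNSC against CNS_NSC it turned without CNS_NSC replicate 2 (0.31). Without CNS_NSC replicate 1 the Ifngr2 difference was -0.43 and called (adjusted p = 0.03, limma). Leaving out a replicate, which leaves a lone array assumed to vary like the other groups, moved the count of members called in pNSC_L against ESC over 2 to 9, in pNSC_LF against pNSC_L over 0 to 1, and in dNSC against CNS_NSC over 8 to 15. Fitting only pNSC_LF and pNSC_L gave 0 by limma. With the dimmer 50% of genes left out, 18 members remained in the test, of which 14 were called in CNS_NSC against ESC and 10 in dNSC against CNS_NSC.

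With the replicate number as a block, 9, 1, 19, 22, 22 and 17 members were called in the 6 comparisons, against 9, 1, 17, 22, 22 and 16 without it. The numbers are not known to pair samples: same-numbered samples' deviations correlated at -0.11 to 0.37 over 10 pairs of groups.

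Signal over background limits the dim members. With the 90th percentile of the sensory receptor genes, 26, 25, 25, 27 and 28 members were above background in ESC, pNSC_L, pNSC_LF, dNSC and CNS_NSC, and with the median of all genes 18, 17, 18, 18 and 19.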
